A study of Homo sapiens with 12 samples.

Results

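The 36 genes described here encode aminoacyl tRNA synthetases, the enzymes that join each amino acid to its tRNA. The rule takes them by gene name alone from the 58735 gene rows of the count table. Of the 36, 20 encode enzymes of the cytosol and 16, whose symbols end in 2, encode enzymes of mitochondria. All 36 passed the filter on low counts and are among the 15060 genes tested.

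RNA sequencing had been done on OCI-AML2, a human acute myeloid leukemia cell line grown in RPMI with fetal bovine serum, at day 6 of treatment. Cells labelled UTX knockout had received sgUTX_2 or sgUTX_4, guides to KDM6A, which encodes the histone H3K27 demethylase UTX, by lentivirus. Cells labelled wild type had received sgLuc, a guide named for luciferase. Each guide was combined with SGC0946 at 1 µM, which inhibits DOT1L, the methyltransferase of histone H3K79, or with DMSO, its solvent, which gave 6 groups of 2 libraries. In the tests the 4 sgUTX libraries of a treatment formed 1 group, so that the difference between the guides entered the error. The labels leave unsaid whether the cells were a pool or a clone and whether the libraries of a group stem from different cultures. P-values therefore reflect library-to-library spread, part or all of which may be technical.

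Aminoacyl tRNA synthetases supply all charged tRNA for translation. Most amino acids have 1 enzyme for the cytosol and another, encoded by a separate nuclear gene, for mitochondria; GARS and KARS make both forms from 1 gene. In animal cells DARS, EPRS, IARS, KARS, LARS, MARS, QARS and RARS sit together in the multisynthetase complex on the scaffold proteins AIMP1, AIMP2 and EEF1E1, and the other cytosolic enzymes are free of it. Uncharged tRNA activates the kinase GCN2 (EIF2AK4), which raises translation of ATF4, and ATF4 with its C/EBP partners binds the C/EBP-ATF response element, whose core is often written TGATGNAA, in genes of amino acid supply, among them several cytosolic synthetase genes.

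Promoter windows from RefSeq (GRCh38.p14), each 250 bases before and 50 bases after an annotated start, were found for 30 of the 36 genes. The windows of DARS, LARS, VARS, YARS, AARS2 and VARS2 are not in the table. TGATGNAA, searched on both strands, occurred in 6 of 16 cytosolic windows (37.5%), in 1 of 14 mitochondrial windows (7.14%, YARS2) and in 1270 of all 35116 windows (3.62%). All 6 cytosolic matches read TGATGCAA on one strand, a form found in 304 of the 35116 windows (0.866%), and 5 of them lay within 14 bases of the start. The stretches of 75 bases below hold these matches, in capitals. They are printed for every cytosolic gene with a match. All 6 genes rose with sgUTX in DMSO and fell with SGC0946 in both genotypes. Most cytosolic genes had the same direction in each of these comparisons. Each is written 5′ to 3′ on the strand of its gene; TTGCATCA is TGATGCAA on the other strand.
AARS, chr16:70289637-70289711, minus strand: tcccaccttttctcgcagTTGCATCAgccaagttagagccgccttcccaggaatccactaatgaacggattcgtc
CARS, chr11:3057399-3057473, minus strand: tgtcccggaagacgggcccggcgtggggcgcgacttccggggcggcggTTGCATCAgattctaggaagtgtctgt
IARS, chr9:92293673-92293747, minus strand: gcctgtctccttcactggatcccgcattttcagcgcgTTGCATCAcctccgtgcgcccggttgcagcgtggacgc
MARS, chr12:57488018-57488092, plus strand: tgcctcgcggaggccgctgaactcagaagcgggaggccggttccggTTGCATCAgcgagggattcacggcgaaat
NARS, chr18:57621812-57621886, minus strand: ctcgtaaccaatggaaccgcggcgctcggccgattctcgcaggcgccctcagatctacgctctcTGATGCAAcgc
TARS, chr5:33440915-33440989, plus strand: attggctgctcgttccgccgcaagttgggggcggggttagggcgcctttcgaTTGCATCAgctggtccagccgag
In AARS the match began 187 bases before the start, in IARS 13, in MARS 4 and in CARS 2 bases before it, while in TARS it began 2 bases and in NARS 14 bases after it. A match describes letters in a window and shows no binding.

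Total counts per library lay between 15480493 and 23262141, so even the lowest member count, of SARS2, was 13 reads. Ribosomal protein genes took 10.97 to 12.12% of counts in the 8 sgUTX libraries, 12.9 and 13.1% in the sgLuc SGC0946 libraries, and 17.7 and 18.9% in the sgLuc DMSO libraries. This shift weighs on any scaling: with library size alone in place of TMM scaling, the median log2 fold change of all genes between sgUTX and sgLuc cells moved to 0.26 in DMSO and 0.20 in SGC0946. KDM6A, the targeted gene, had 14.7 and 15.6 CPM (TMM-scaled counts per 1000000) in sgUTX_2 DMSO libraries and 46.2 and 49.4 CPM in sgUTX_4 DMSO libraries, against 27.9 and 32.0 CPM in sgLuc DMSO libraries; mRNA does not show whether a guide removed the protein. Of 8 myeloid markers, 7 passed 1 CPM in some library, CD68 did not, and 5 of 6 erythroid and megakaryocytic markers were at 0 throughout. Of 5 lymphoid markers 3 passed 1 CPM in some library, and their sum reached 15.8 CPM in an sgLuc SGC0946 library. Of 5 adherent or epithelial markers 3 passed it, and their sum reached 8.42 CPM in an sgUTX_2 SGC0946 library. The summed level of the 8 myeloid markers was 4368 to 6305 CPM in sgUTX SGC0946 libraries, 11345 and 11571 CPM in sgLuc SGC0946 libraries, 1213 to 1585 CPM in sgUTX DMSO libraries, and 1603 and 1748 CPM in sgLuc DMSO libraries. Its part in the results below was not tested. In bulk RNA, fewer cells of a kind and less RNA per cell cannot be told apart.

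Levels between genes are given as CPM per kilobase of merged exons in sgLuc DMSO cells, as the mean of 2 libraries. QARS, the glutamine enzyme, stood highest at 133 CPM per kilobase, before EPRS, the fused glutamate and proline enzyme, at 119. IARS2 was the highest mitochondrial gene at 87.2 CPM per kilobase, above 18 of the 20 cytosolic genes. The median was 40.0 CPM per kilobase over the cytosolic genes (range 8.10 to 133) and 7.40 over the mitochondrial genes (range 0.346 to 87.2). In this order YARS, WARS and VARS overlapped with their neighbours, as did NARS2, RARS2, TARS2, AARS2 and HARS, and likewise CARS with CARS2, and MARS2, EARS2, LARS2 and HARS2. SARS2 was lowest, at 0.346 CPM per kilobase, and 57.0% of its annotated exonic bases are shared with other genes, 46.2% with 1 gene on its own strand, so its values are uncertain. Shared exonic bases also made up 22.0% of VARS2 (with GTF2H4, same strand), 15.8% of HARS2 (most with HARS, opposite strand), 13.3% of MARS, 10.6% of WARS and 8.38% of HARS, and use of strand in the counting is not given in the sources used here. Pseudogenes named after AARS, CARS, FARSB, GARS, KARS, NARS, RARS, WARS, IARS2, TARS2 and WARS2 are annotated, and reads that match both copies may have been split or lost. Gene positions in the following are those of GENCODE 29 (GRCh38).

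Summed over the 20 cytosolic genes, the level was 5207 and 5306 CPM in sgUTX_2 SGC0946 libraries, 4298 and 4876 CPM in sgUTX_4 SGC0946 libraries, and 3042 and 3077 CPM in sgLuc SGC0946 libraries. With DMSO it was 6537 and 6456 CPM in sgUTX_2 libraries, 6128 and 6407 CPM in sgUTX_4 libraries, and 4668 and 4882 CPM in sgLuc libraries. The sgUTX libraries lay above the sgLuc libraries within each treatment, with no overlap, and the SGC0946 libraries lay below the DMSO libraries of the same guide. The mitochondrial sum moved less, at 864 to 903 CPM in sgUTX SGC0946 libraries, 695 and 702 CPM in sgLuc SGC0946 libraries, 874 to 940.2 CPM in sgUTX DMSO libraries, and 838 and 854 CPM in sgLuc DMSO libraries. Only the sgLuc SGC0946 libraries stood well apart in that sum. IARS2 supplied far more of it than any other gene. The sum did not always follow IARS2: with sgUTX in DMSO, IARS2 fell (log2 fold change -0.20). The sum was higher there in every sgUTX library than in the sgLuc libraries.

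**Figure D1:**
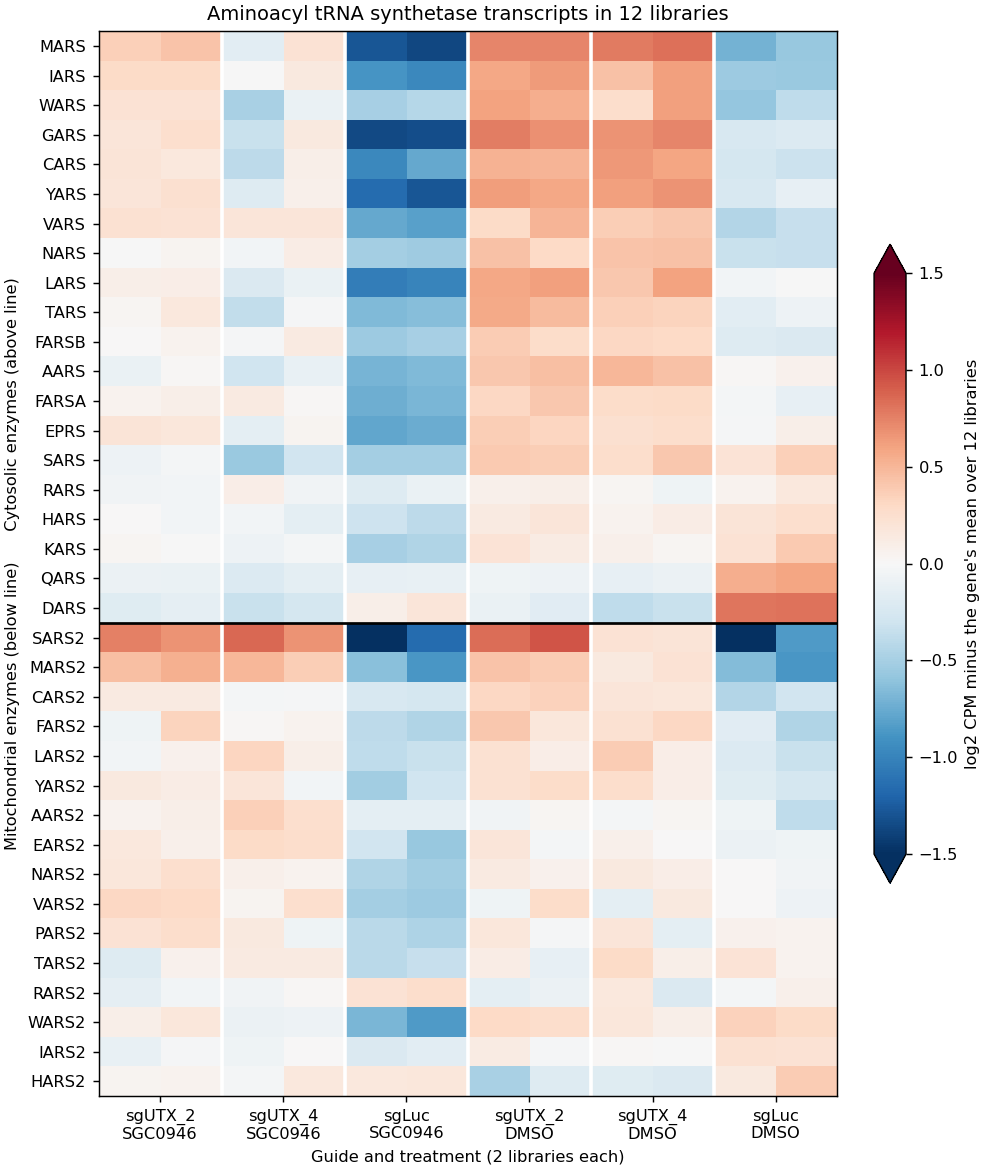
Heat map of the 36 genes (rows; cytosolic above the line, mitochondrial below, each sorted by the change with sgUTX in DMSO) in 12 libraries (columns, 2 for each guide and treatment). Color is log2 CPM minus the gene's mean over the 12 libraries, cut at 1.5 in both directions; the sgLuc SGC0946 columns are low for most cytosolic genes, while DARS and QARS are high in the sgLuc DMSO columns.

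The comparison of sgUTX with sgLuc cells in DMSO sets cells that had received a UTX guide against control cells without the inhibitor. KDM6A mRNA was below sgLuc with sgUTX_2 and above it with sgUTX_4, so loss of UTX is the label's statement and was not measured here. Most cytosolic synthetase mRNAs were more abundant in sgUTX cells: 14 of 20 rose, 3 fell and 3 were not called (adjusted p under 0.05), where 28.7% of all genes were called higher, 32.3% lower and 61% in either direction. The median log2 fold change was 0.54 over the 20 genes and -0.01 over all genes. Of the 16 mitochondrial genes 6 rose, 2 fell and 8 were not called, with a median of 0.13, so their share called was below that of all genes.

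Within the multisynthetase complex the members moved in both directions: 4 rose, 3 fell and RARS, the arginine enzyme, was not called (log2 fold change -0.07 ± 0.07, adjusted p = 0.382). MARS (ENSG00000166986, chr12:57475445-57517569, plus strand), which charges methionine for starting and extending proteins, had 341 and 340.2 CPM in sgUTX_2 cells, 350.0 and 363 CPM in sgUTX_4 cells, and 125 and 137 CPM in sgLuc cells. All 4 sgUTX libraries were more than 2 times as high as either sgLuc library, and the log2 fold change was 1.41 ± 0.13 (SE, adjusted p = 1.02e-06). IARS (ENSG00000196305, chr9:92210207-92293756, minus strand), the isoleucine enzyme, had 614 and 642 CPM in sgUTX_2 cells, 557 and 631 CPM in sgUTX_4 cells, and 281 and 280.0 CPM in sgLuc cells, again with no overlap (log2 fold change 1.12 ± 0.08, adjusted p = 3.84e-11). LARS, the leucine enzyme (log2 fold change 0.58 ± 0.08, adjusted p = 2.17e-06), and EPRS (log2 fold change 0.26 ± 0.08, adjusted p = 0.00503) also rose. The EPRS call was lost without sgLuc DMSO replicate 1 (log2 fold change 0.21, adjusted p = 0.0867).

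DARS (ENSG00000115866, chr2:135906677-135986100, minus strand), the aspartate enzyme of the same complex, went the other way, with 164 and 156 CPM in sgUTX_2 cells, 135 and 139 CPM in sgUTX_4 cells, and 306 and 307 CPM in sgLuc cells. Every sgUTX library was below both sgLuc libraries, at a fitted ratio of 0.484 (log2 fold change -1.05 ± 0.07, adjusted p = 2.17e-11). QARS (ENSG00000172053, chr3:49095932-49105135, minus strand) had 404 and 399 CPM in sgUTX_2 cells, 386 and 396 CPM in sgUTX_4 cells, and 612 and 637 CPM in sgLuc cells, so that the groups did not overlap and QARS fell (log2 fold change -0.66 ± 0.06, adjusted p = 6.52e-10). KARS, the lysine enzyme, had 255 and 241 CPM in sgUTX_2 cells, 234 and 226 CPM in sgUTX_4 cells, and 258 and 290.0 CPM in sgLuc cells, and its fall was small (log2 fold change -0.20 ± 0.06, adjusted p = 0.0087). Without sgLuc DMSO replicate 2 the call of KARS was lost (log2 fold change -0.11, adjusted p = 0.249), and with library size alone the direction turned (0.076, adjusted p = 0.269).

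Of the 12 free cytosolic enzymes 10 rose, where 28.7% of all genes were called higher. The median log2 fold change of the free enzymes was 0.65, against 0.10 over the 8 members of the complex, which ranged from -1.05 to 1.41. Under SGC0946 the medians for sgUTX over sgLuc were 0.59 for the free enzymes and 0.64 for the complex. The difference between these sets was not tested. WARS (ENSG00000140105, chr14:100333788-100376805, minus strand), the tryptophan enzyme, had 377 and 361 CPM in sgUTX_2 cells, 298 and 378 CPM in sgUTX_4 cells, and 166 and 189 CPM in sgLuc cells, and all sgUTX libraries were above the sgLuc libraries (log2 fold change 0.99 ± 0.20, adjusted p = 0.00235). GARS (ENSG00000106105, chr7:30594681-30634033, plus strand), the glycine enzyme, had 505 and 476 CPM in sgUTX_2 cells, 474 and 494 CPM in sgUTX_4 cells, and 251 and 257 CPM in sgLuc cells, with no overlap (log2 fold change 0.94 ± 0.12, adjusted p = 2.14e-05). CARS for cysteine (log2 fold change 0.86 ± 0.14, adjusted p = 0.000139), YARS for tyrosine (log2 fold change 0.81 ± 0.09, adjusted p = 3.35e-07), VARS for valine (log2 fold change 0.78 ± 0.06, adjusted p = 4.4e-10) and NARS for asparagine (log2 fold change 0.74 ± 0.06, adjusted p = 6.65e-10) followed. Smaller rises were found for TARS (threonine, 0.56 ± 0.11), FARSB and FARSA (the subunits of the phenylalanine enzyme, 0.52 ± 0.06 and 0.39 ± 0.06) and AARS (alanine, 0.41 ± 0.07). HARS, the histidine enzyme (log2 fold change -0.10 ± 0.07, adjusted p = 0.199), and SARS, the serine enzyme (log2 fold change 0.07 ± 0.11, adjusted p = 0.594), were not called. With library size alone HARS was called higher (0.18, adjusted p = 0.0275), as was RARS (0.20, adjusted p = 0.0135).

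Among the mitochondrial genes, MARS2 (ENSG00000247626, chr2:197705369-197708387, plus strand), the methionine enzyme, had 47.6 and 45.9 CPM in sgUTX_2 cells, 39.0 and 40.9 CPM in sgUTX_4 cells, and 22.5 and 19.3 CPM in sgLuc cells. Its sgUTX levels were about 2 times the sgLuc levels (log2 fold change 1.05 ± 0.10, adjusted p = 7.14e-09). CARS2, the cysteine enzyme, had 131 and 135 CPM in sgUTX_2 cells, 119.7 and 119 CPM in sgUTX_4 cells, and 78.0 and 87.0 CPM in sgLuc cells, with no overlap (log2 fold change 0.61 ± 0.07, adjusted p = 1.86e-07). SARS2, the serine enzyme, had 4.42 and 4.73 CPM in sgUTX_2 cells, 2.87 and 2.81 CPM in sgUTX_4 cells, and 0.871 and 1.36 CPM in sgLuc cells. It carried the largest fold change of the 36 genes (log2 fold change 1.76 ± 0.31, adjusted p = 3.74e-05), on few reads and with the shared exons given above. FARS2 (phenylalanine, 0.57 ± 0.13), LARS2 (leucine, 0.47 ± 0.10) and YARS2 (tyrosine, 0.43 ± 0.09) also rose.

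HARS2, the mitochondrial histidine enzyme, whose gene overlaps the start of HARS in the opposite orientation, had 13.3 and 16.3 CPM in sgUTX_2 cells, 16.4 and 16.1 CPM in sgUTX_4 cells, and 20.6 and 24.3 CPM in sgLuc cells. All sgUTX libraries were lower (log2 fold change -0.53 ± 0.11, adjusted p = 0.00018). IARS2, the isoleucine enzyme, had 338 and 307 CPM in sgUTX_2 cells, 313 and 308 CPM in sgUTX_4 cells, and 364 and 362 CPM in sgLuc cells, also without overlap (log2 fold change -0.20 ± 0.06, adjusted p = 0.0056). Without sgLuc DMSO replicate 1 the call of IARS2 was lost (-0.19, adjusted p = 0.0503), and with library size alone its direction turned (0.074, adjusted p = 0.249). TARS2 for threonine, at -0.04 ± 0.10 and not called, became higher with library size alone (0.23, adjusted p = 0.048).

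The 6 cytosolic genes with TGATGCAA in the window all rose in DMSO, by log2 fold changes between 0.41 for AARS and 1.41 for MARS and with a median of 0.80. Of the 10 cytosolic genes whose window held no match, 5 rose, 2 fell and 3 were not called, with a median of 0.17. Over all genes 28.7% were called higher and 32.3% lower. Of the cytosolic genes with no window in the table, LARS (0.58), VARS (0.78) and YARS (0.81) rose and DARS (-1.05) fell. The difference between genes with and without a match was not tested. WARS and GARS, at 0.99 and 0.94, had no match in their windows and rose more than 4 of the 6 genes with one. YARS2, the mitochondrial gene with a match, rose by 0.43.

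**Figure D2:**
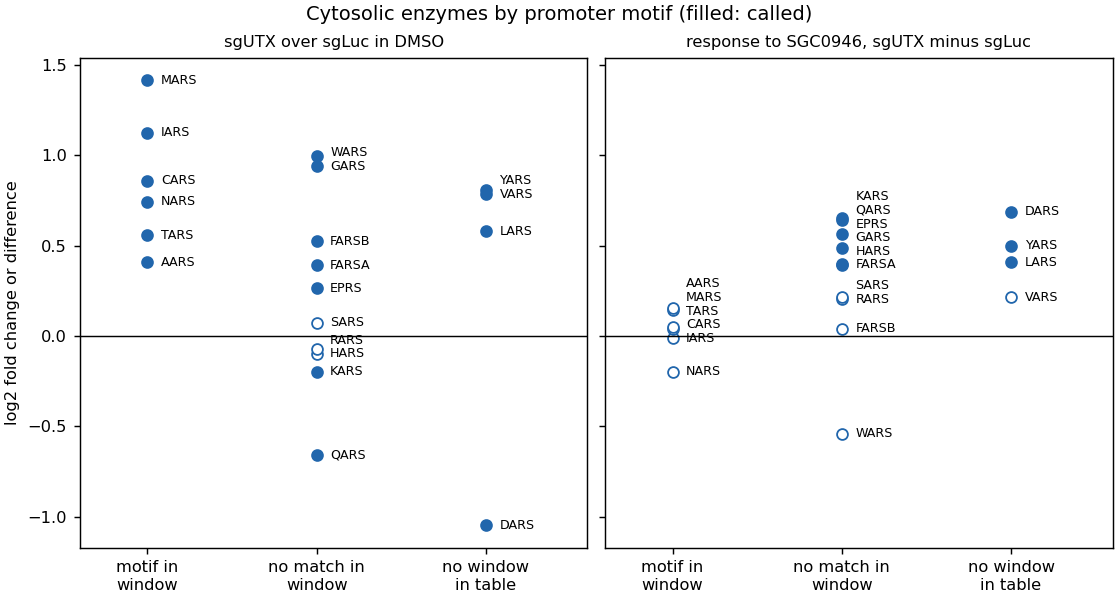
Log2 fold changes of the 20 cytosolic genes by what their promoter window holds (motif, no match, or no window in the table); the left panel is sgUTX over sgLuc in DMSO and the right panel the difference of the SGC0946 responses, sgUTX minus sgLuc. Filled points passed an adjusted p of 0.05; all 6 motif genes lie above 0.4 on the left and none of the 6 is filled on the right.

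Both guides gave nearly the same counts in DMSO. In a fit with each guide as its own group, 14 cytosolic genes rose and 3 fell for sgUTX_2 (28.2% of all genes were called higher and 32.2% lower) and likewise for sgUTX_4 (28.5% higher and 31.2% lower). For each guide 7 mitochondrial genes rose and 2 fell. Between the guides, sgUTX_4 over sgUTX_2, DARS alone was called among the 36 genes in DMSO (log2 fold change -0.22 ± 0.06 (SE), adjusted p = 0.0322), where 3.49% of all genes were called.

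The comparison of SGC0946 with DMSO in sgLuc cells asks what DOT1L inhibition does in cells labelled wild type for UTX. Nearly all cytosolic synthetase mRNAs became less abundant: 19 of 20 fell and WARS was not called, where 24.2% of all genes were called lower, 24.7% higher and 48.9% in either direction. The median log2 fold change was -0.65, against 0.00 over all genes, and all 8 members of the multisynthetase complex fell. Of the 16 mitochondrial genes 7 fell and 9 were not called, with a median of -0.20.

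GARS had 116 and 118 CPM in sgLuc cells with SGC0946, against 251 and 257 CPM with DMSO, so both inhibitor-treated libraries were far below the DMSO libraries, at a fitted ratio of 0.46 (log2 fold change -1.12 ± 0.14, adjusted p = 2.31e-05). YARS had 121 and 111 CPM in sgLuc cells with SGC0946, against 228 and 247 CPM with DMSO, with no overlap (log2 fold change -1.04 ± 0.10, adjusted p = 1.4e-07). LARS had 133 and 137 CPM in sgLuc cells with SGC0946, against 265 and 272 CPM with DMSO, and fell to a like extent (log2 fold change -0.99 ± 0.09, adjusted p = 1.42e-08). EPRS (log2 fold change -0.80 ± 0.09, adjusted p = 1.2e-07), SARS (log2 fold change -0.80 ± 0.13, adjusted p = 0.000167) and KARS (log2 fold change -0.78 ± 0.07, adjusted p = 8.89e-09) came next. The smallest call was that of NARS (log2 fold change -0.18 ± 0.07, adjusted p = 0.0411), which had 168 and 166 CPM in sgLuc cells with SGC0946, against 189.7 and 188 CPM with DMSO. It was lost without any one of the 4 sgLuc libraries and without sgUTX_4 DMSO replicate 2, with adjusted p between 0.0501 and 0.165. The call of CARS was lost without sgLuc DMSO replicate 1 (-0.55, adjusted p = 0.0513) and without sgLuc SGC0946 replicate 1 (-0.48, adjusted p = 0.0702). That of RARS was lost without sgLuc DMSO replicate 2 (-0.20, adjusted p = 0.124) and without sgLuc SGC0946 replicate 1 (-0.20, adjusted p = 0.136). WARS had 176 and 184 CPM in sgLuc cells with SGC0946, against 166 and 189 CPM with DMSO and did not differ beyond its error (log2 fold change 0.02 ± 0.23, adjusted p = 0.954).

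Of the mitochondrial genes WARS2 (ENSG00000116874, chr1:119031216-119140671, minus strand), the tryptophan enzyme, had 16.4 and 14.6 CPM in sgLuc cells with SGC0946, against 33.5 and 32.2 CPM with DMSO. Its treated libraries lay below the DMSO libraries, at a fitted ratio of 0.471 (log2 fold change -1.09 ± 0.12, adjusted p = 6.34e-08), while its cytosolic counterpart WARS was not called (0.02 ± 0.23). TARS2 had 31.9 and 33.2 CPM in sgLuc cells with SGC0946, against 48.5 and 43.9 CPM with DMSO (log2 fold change -0.51 ± 0.12, adjusted p = 0.0014). VARS2, the valine enzyme, had 19.9 and 19.5 CPM in sgLuc cells with SGC0946, against 28.4 and 27.0 CPM with DMSO (log2 fold change -0.50 ± 0.13, adjusted p = 0.00294). For both genes the groups did not overlap. PARS2 (proline, -0.49 ± 0.16), NARS2 (asparagine, -0.47 ± 0.09), IARS2 (-0.41 ± 0.07) and EARS2 (glutamate, -0.35 ± 0.11) fell as well. The call of EARS2 was lost without sgLuc SGC0946 replicate 2 (-0.21, adjusted p = 0.183), and that of PARS2 without the same library (-0.46, adjusted p = 0.0776) and without sgLuc DMSO replicate 1 (-0.49, adjusted p = 0.0604). RARS2, the arginine enzyme, had the highest value, 0.22 ± 0.11, and was not called.

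In sgUTX cells SGC0946 lowered 16 of the 20 cytosolic genes, and 4 were not called, where 16.4% of all genes were called lower, 17.4% higher and 33.8% in either direction. The median log2 fold change was -0.38, against 0.00 over all genes. All 12 free enzymes fell, whereas within the multisynthetase complex IARS, LARS, MARS and EPRS fell and DARS, QARS, RARS and KARS were not called. KARS missed the threshold narrowly (log2 fold change -0.13 ± 0.05, adjusted p = 0.0563). It was called lower with RLE factors (adjusted p = 0.0487), DESeq2 (0.0374), no filter (0.0359) and guides averaged (0.0173). Without sgUTX_4 DMSO replicate 2 it was called lower too (0.0395). The mitochondrial genes stayed near their DMSO level, with a median of 0.02, 2 called higher, 1 called lower and 13 not called, below the share called over all genes.

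GARS had 335 and 353 CPM in sgUTX_2 cells and 236 and 329 CPM in sgUTX_4 cells with SGC0946, against 505 and 476 CPM and 474 and 494 CPM with DMSO. The treated libraries were all lower (log2 fold change -0.64 ± 0.10, adjusted p = 0.000217), with sgUTX_4 SGC0946 replicate 1 lowest. LARS had 289 and 292 CPM in sgUTX_2 cells and 235 and 254 CPM in sgUTX_4 cells with SGC0946, against 408 and 419 CPM and 361 and 415 CPM with DMSO, without overlap (log2 fold change -0.58 ± 0.06, adjusted p = 2.75e-07). SARS had 125 and 129 CPM in sgUTX_2 cells and 89.7 and 108 CPM in sgUTX_4 cells with SGC0946, against 173 and 171 CPM and 159 and 174 CPM with DMSO, also without overlap (log2 fold change -0.58 ± 0.09, adjusted p = 0.00019).

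DARS, which had fallen by the guides alone, had 154 and 159.7 CPM in sgUTX_2 cells and 138 and 146 CPM in sgUTX_4 cells with SGC0946, against 164 and 156 CPM and 135 and 139 CPM with DMSO, and the treatments overlapped (log2 fold change 0.01 ± 0.06, adjusted p = 0.914). QARS had 395 and 394 CPM in sgUTX_2 cells and 365 and 379 CPM in sgUTX_4 cells with SGC0946, against 404 and 399 CPM and 386 and 396 CPM with DMSO (log2 fold change -0.05 ± 0.05, adjusted p = 0.471). Over the 10 libraries other than the sgLuc DMSO libraries, QARS ranged only from 365 to 404 CPM, against 612 and 637 CPM in the sgLuc DMSO libraries. WARS had 288 and 289 CPM in sgUTX_2 cells and 176 and 232 CPM in sgUTX_4 cells with SGC0946, against 377 and 361 CPM and 298 and 378 CPM with DMSO, and its call (log2 fold change -0.52 ± 0.16, adjusted p = 0.0324) was lost without either sgUTX_2 DMSO library, without sgUTX_4 DMSO replicate 2 and without sgUTX_4 SGC0946 replicate 2, with adjusted p between 0.0711 and 0.0787. The call of HARS was lost without sgUTX_4 SGC0946 replicate 2 (-0.15, adjusted p = 0.0571).

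Among mitochondrial genes HARS2 had 19.2 and 19.3 CPM in sgUTX_2 cells and 18.2 and 20.8 CPM in sgUTX_4 cells with SGC0946, against 13.3 and 16.3 CPM and 16.4 and 16.1 CPM with DMSO, all treated libraries being higher (log2 fold change 0.32 ± 0.09, adjusted p = 0.00571). AARS2, the alanine enzyme, had 50.7 and 52.0 CPM in sgUTX_2 cells and 63.0 and 58.1 CPM in sgUTX_4 cells with SGC0946, against 47.4 and 50.1 CPM and 47.96 and 50.03 CPM with DMSO. Its small rise (log2 fold change 0.19 ± 0.07, adjusted p = 0.0424) was lost without either library of sgLuc SGC0946, sgUTX_4 SGC0946 or sgUTX_4 DMSO, and without sgUTX_2 DMSO replicate 1, with adjusted p between 0.058 and 0.175. CARS2 had 116 and 116 CPM in sgUTX_2 cells and 104 and 104 CPM in sgUTX_4 cells with SGC0946, against 131 and 135 CPM and 119.7 and 119 CPM with DMSO and fell (log2 fold change -0.19 ± 0.06, adjusted p = 0.0114).

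**Figure D3:**
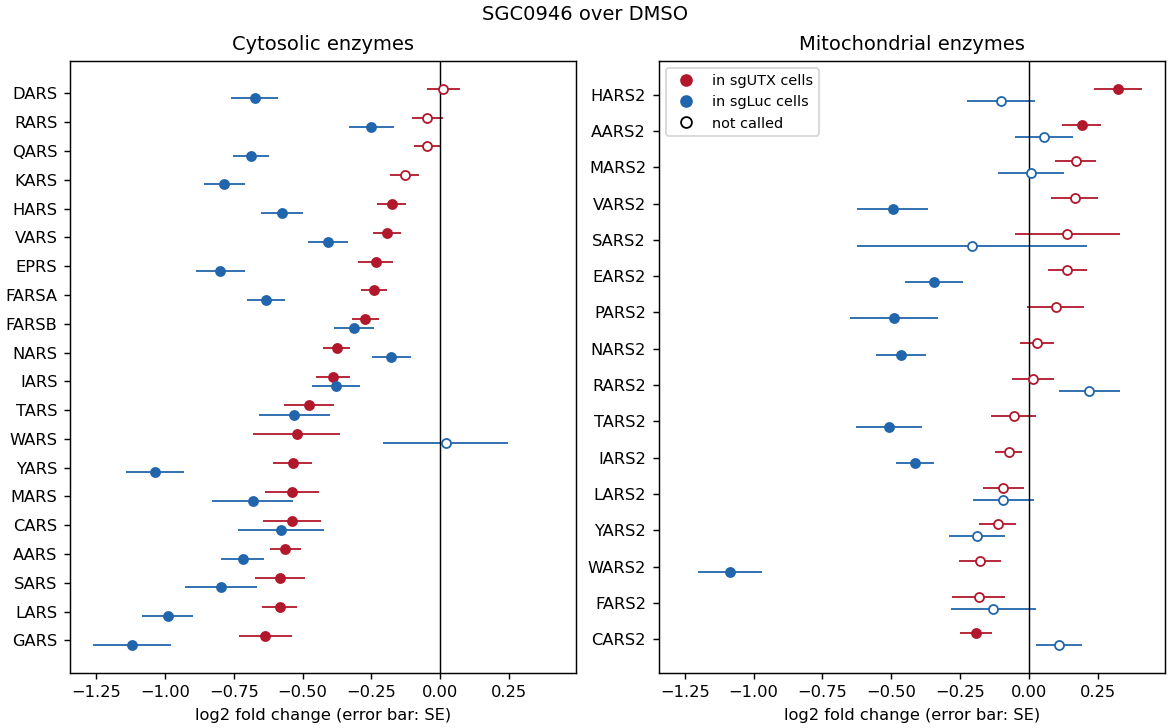
Log2 fold change of SGC0946 over DMSO for each cytosolic gene (left) and mitochondrial gene (right), in sgUTX cells (red) and sgLuc cells (blue), with the SE as error bar; open points were not called. Most blue points of the left panel lie between -0.5 and -1.2, and the red points between 0.01 and -0.64.

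The difference of these responses, sgUTX minus sgLuc, was tested as an interaction. It was positive, meaning a higher log2 response in sgUTX than in sgLuc cells, and called for 9 of the 20 cytosolic and 8 of the 16 mitochondrial genes. A positive value need not be a smaller fall: HARS2 was called higher with SGC0946 in sgUTX cells (0.32). CARS2 was the 1 gene called negative, and 18 were not called. The most negative value was that of WARS, at -0.54, which was not called. With guides averaged WARS was called negative (-0.56, adjusted p = 0.0493). Over all genes 18.3% were called positive, 16.5% negative and 34.8% in either direction, and the median was 0.02, against 0.22 over the cytosolic and 0.34 over the mitochondrial genes. The sgLuc DMSO libraries enter this difference as well as the sgUTX comparison in DMSO and the sgLuc response, so these are not independent results.

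Largest among the cytosolic genes were DARS (log2 difference 0.69 ± 0.10, adjusted p = 2.28e-05), KARS (log2 difference 0.65 ± 0.09, adjusted p = 6.2e-06) and QARS (log2 difference 0.64 ± 0.08, adjusted p = 1.81e-06), all members of the multisynthetase complex. KARS had 226 and 221 CPM in sgUTX_2 cells and 210.1 and 216 CPM in sgUTX_4 cells with SGC0946, against 255 and 241 CPM and 234 and 226 CPM with DMSO, and 157 and 162 CPM in sgLuc cells with SGC0946, against 258 and 290.0 CPM with DMSO. QARS had 386 and 388 CPM in sgLuc cells with SGC0946, against 612 and 637 CPM with DMSO. EPRS (log2 difference 0.57 ± 0.11, adjusted p = 0.000293), YARS (log2 difference 0.50 ± 0.13, adjusted p = 0.00447), LARS (log2 difference 0.41 ± 0.11, adjusted p = 0.00717), HARS (log2 difference 0.40 ± 0.09, adjusted p = 0.00207) and FARSA (log2 difference 0.39 ± 0.08, adjusted p = 0.000904) were also called. GARS was called at 0.48 ± 0.17 (adjusted p = 0.0427) but kept that call in only 1 of the 12 fits that left out a library, the one without sgUTX_4 SGC0946 replicate 1; the other 11 gave adjusted p between 0.054 and 0.123.

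WARS2 showed the largest difference of the 36 genes (log2 difference 0.91 ± 0.14, adjusted p = 2.31e-05). It had 27.99 and 29.6 CPM in sgUTX_2 cells and 24.8 and 24.9 CPM in sgUTX_4 cells with SGC0946. The DMSO values were 32.4 and 31.5 CPM and 29.6 and 27.9 CPM, which overlapped across the guides but not within either guide. Its fall in sgUTX cells was not called (-0.18 ± 0.08, adjusted p = 0.077), but it was called with guides averaged (-0.18, adjusted p = 0.0257). The sgLuc values of WARS2 are given above. VARS2 (log2 difference 0.66 ± 0.15, adjusted p = 0.00191) and PARS2 (log2 difference 0.59 ± 0.19, adjusted p = 0.0189) followed. VARS2 had 35.2 and 35.0 CPM in sgUTX_2 cells and 29.2 and 33.9 CPM in sgUTX_4 cells with SGC0946, against 27.2 and 34.5 CPM and 25.7 and 31.5 CPM with DMSO. PARS2 had 12.9 and 13.4 CPM in sgUTX_2 cells and 12.3 and 10.6 CPM in sgUTX_4 cells with SGC0946, against 12.5 and 11.002 CPM and 12.6 and 10.0 CPM with DMSO. It had 8.39 and 8.04 CPM in sgLuc cells with SGC0946, against 11.6 and 11.5 CPM with DMSO. The sgLuc SGC0946 libraries were below the other 10, and the call was lost without any one of the 4 sgLuc libraries, with adjusted p between 0.0515 and 0.0758. The count of mitochondrial calls, 9 in all, was 5 without sgLuc SGC0946 replicate 1 and 4 without sgLuc SGC0946 replicate 2. CARS2 had 89.6 and 88.3 CPM in sgLuc cells with SGC0946, against 78.0 and 87.0 CPM with DMSO. Its difference was negative (log2 difference -0.30 ± 0.10, adjusted p = 0.0237), and its call was lost without sgLuc DMSO replicate 1 (-0.23, adjusted p = 0.168) and without either sgLuc SGC0946 library.

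Of the 6 cytosolic genes with TGATGCAA in the window edgeR called 0 for this difference (1 at an unadjusted p under 0.05, NARS). NARS was called lower, at -0.29 to -0.20, with DESeq2 (adjusted p = 0.0268), and by edgeR with library size alone (adjusted p = 0.0104), RLE factors (0.0452), no filter (0.035), guides averaged (0.0393) and without sgUTX_2 DMSO replicate 2 (0.0334). MARS was called higher without sgUTX_4 SGC0946 replicate 1 (0.25, adjusted p = 0.0449). Their median difference was 0.05, with a range of -0.20 to 0.16. Of the 10 genes without a match 6 were called, all positive, with a median of 0.40. Over all genes 18.3% were called positive and 16.5% negative. The difference between genes with and without a match was not tested. In both genotypes all 6 motif genes fell with SGC0946, by a median of 0.51 on the log2 scale in sgUTX cells and 0.55 in sgLuc cells.

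The comparison of sgUTX with sgLuc cells under SGC0946 sets cells that had received a UTX guide against control cells while DOT1L is inhibited. KDM6A was at 14.4 and 15.9 CPM in sgUTX_2 libraries and 43.2 and 48.9 CPM in sgUTX_4 libraries, against 34.5 and 35.1 CPM in sgLuc libraries. Here both classes were higher in sgUTX cells: 16 of 20 cytosolic genes rose, 1 fell and 3 were not called, and 14 of 16 mitochondrial genes rose, 1 fell and 1 was not called. Over all genes 27.7% were called higher, 29.3% lower and 56.9% in either direction. The median log2 fold change was 0.59 over the cytosolic, 0.51 over the mitochondrial and 0.01 over all genes.

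MARS had 263 and 275 CPM in sgUTX_2 cells, 183 and 238 CPM in sgUTX_4 cells, and 83.7 and 79.6 CPM in sgLuc cells. Every sgUTX library was more than 2 times as high as the sgLuc libraries (log2 fold change 1.56 ± 0.13, adjusted p = 5.76e-07). GARS had 335 and 353 CPM in sgUTX_2 cells, 236 and 329 CPM in sgUTX_4 cells, and 116 and 118 CPM in sgLuc cells, at least 2 times the sgLuc level in each sgUTX library (log2 fold change 1.42 ± 0.13, adjusted p = 6.53e-07). YARS had 306 and 319 CPM in sgUTX_2 cells, 235 and 284 CPM in sgUTX_4 cells, and 121 and 111 CPM in sgLuc cells, without overlap (log2 fold change 1.31 ± 0.09, adjusted p = 8.36e-10). IARS (log2 fold change 1.11 ± 0.08, adjusted p = 5.51e-11), VARS (log2 fold change 1.00 ± 0.07, adjusted p = 1.02e-11) and LARS (log2 fold change 0.99 ± 0.08, adjusted p = 1.43e-09) rose by about 1 log2 unit.

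DARS was again lower in sgUTX cells, with 154 and 159.7 CPM in sgUTX_2 cells, 138 and 146 CPM in sgUTX_4 cells, and 186 and 198 CPM in sgLuc cells. No library overlapped (log2 fold change -0.36 ± 0.07, adjusted p = 0.00021). QARS (log2 fold change -0.02 ± 0.06, adjusted p = 0.841), RARS (log2 fold change 0.13 ± 0.07, adjusted p = 0.119) and WARS (log2 fold change 0.45 ± 0.20, adjusted p = 0.0823) were not called; with library size alone QARS turned to 0.17 (adjusted p = 0.0108). KARS, slightly lower with the guides in DMSO, was higher here (log2 fold change 0.46 ± 0.06, adjusted p = 2.51e-06). SARS was called narrowly (log2 fold change 0.29 ± 0.11, adjusted p = 0.0437), and that call was lost without any one library of sgUTX_2, of sgUTX_4 DMSO or of sgLuc SGC0946, with adjusted p between 0.0547 and 0.155.

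Of the mitochondrial genes MARS2 had 48.5 and 51.1 CPM in sgUTX_2 cells, 49.98 and 45.8 CPM in sgUTX_4 cells, and 22.9 and 19.2 CPM in sgLuc cells. The sgUTX levels were again about 2 times the sgLuc levels (log2 fold change 1.21 ± 0.10, adjusted p = 5.88e-10), and the response difference of MARS2 was 0.16 ± 0.14. SARS2 had 4.15 and 3.94 CPM in sgUTX_2 cells, 4.48 and 3.94 CPM in sgUTX_4 cells, and 0.785 and 1.11 CPM in sgLuc cells (log2 fold change 2.11 ± 0.31, adjusted p = 3.34e-06). WARS2 had 27.99 and 29.6 CPM in sgUTX_2 cells, 24.8 and 24.9 CPM in sgUTX_4 cells, and 16.4 and 14.6 CPM in sgLuc cells, with every sgUTX library higher (log2 fold change 0.79 ± 0.10, adjusted p = 6.46e-07). RARS2 had 26.1 and 27.97 CPM in sgUTX_2 cells, 27.7 and 28.9 CPM in sgUTX_4 cells, and 33.3 and 34.3 CPM in sgLuc cells and was the 1 mitochondrial gene to fall (log2 fold change -0.29 ± 0.09, adjusted p = 0.0109), a call lost without sgLuc SGC0946 replicate 2 (-0.27, adjusted p = 0.0921). HARS2 was not called (log2 fold change -0.11 ± 0.11, adjusted p = 0.402). IARS2, at 0.14 ± 0.06 and an adjusted p of 0.0496, lost its call in 8 of the 12 fits that left out a library, with adjusted p between 0.0512 and 0.306, and kept it without either sgUTX_2 DMSO library, sgUTX_4 DMSO replicate 1 or sgUTX_2 SGC0946 replicate 1.

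**Figure D4:**
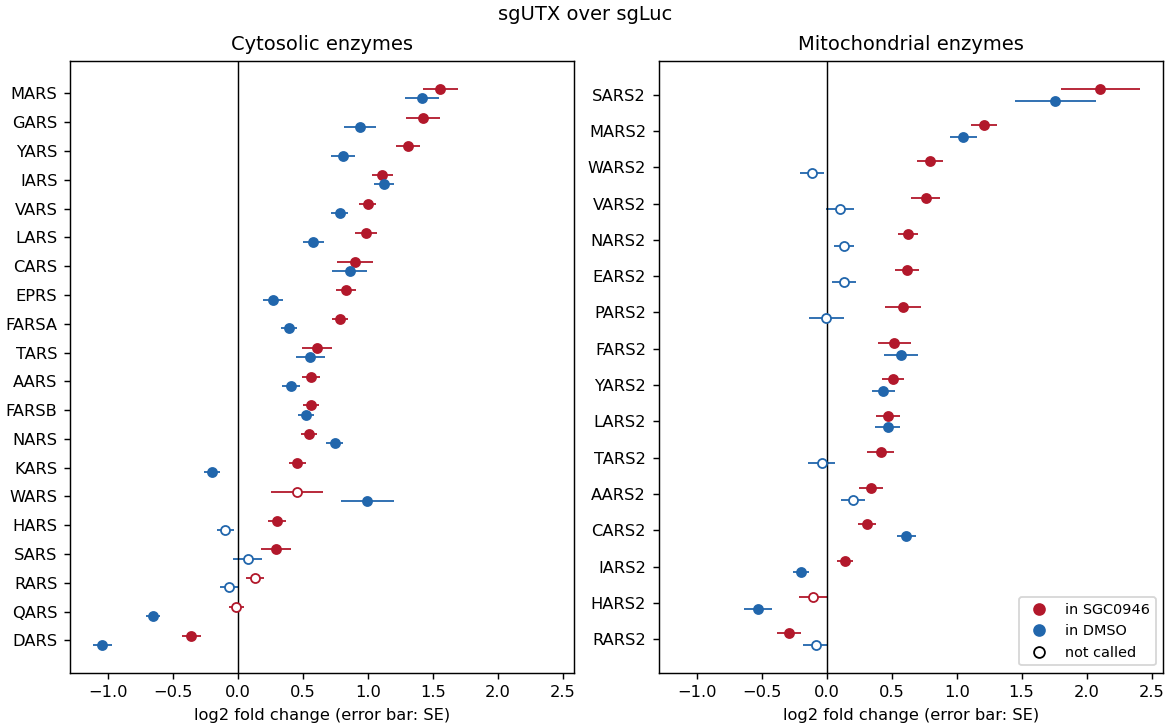
Log2 fold change of sgUTX over sgLuc for each cytosolic gene (left) and mitochondrial gene (right), under SGC0946 (red) and in DMSO (blue), with the SE as error bar; open points were not called. In the right panel 14 red points are filled above 0, against 6 blue points; DARS is below 0 in both treatments.

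One library stood apart within this comparison. Among the 4 sgUTX SGC0946 libraries, sgUTX_4 SGC0946 replicate 1 was the lowest for 16 of the 20 cytosolic genes but for only 4 of the 16 mitochondrial genes. WARS had 288 and 289 CPM in sgUTX_2 cells, 176 and 232 CPM in sgUTX_4 cells, and 176 and 184 CPM in sgLuc cells, so that this library was level with the sgLuc libraries. Without it WARS was called higher (log2 fold change 0.58, adjusted p = 0.000886), and the response differences of MARS (0.25, adjusted p = 0.0449) and SARS (0.31, adjusted p = 0.0209) were called too. PSAT1, a serine synthesis enzyme, was also low there, at 239 CPM, against 356 to 412 CPM in the other sgUTX SGC0946 libraries. PHGDH, from the same list of amino acid response genes, was lower in both sgUTX_4 SGC0946 libraries. It had 225 and 303 CPM there, against 440 and 445 CPM in sgUTX_2 SGC0946 libraries. TRIB3, also of that list, overlapped between the guides, at 205 and 225 CPM against 209 and 222 CPM.

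Each guide alone gave like counts under SGC0946. For sgUTX_2 17 cytosolic and 13 mitochondrial genes rose (27.3% of all genes were called higher and 29.1% lower), and for sgUTX_4 15 and 14 rose (27.3% higher and 29% lower), with 1 of each class lower for each guide. Within a guide, SGC0946 over DMSO lowered 13 cytosolic genes for sgUTX_2 (13.7% of all genes were called lower, 14.1% higher and 27.8% in either direction) and 15 for sgUTX_4 (12.5% lower, 13.9% higher and 26.4% in either direction), and raised none. Of the mitochondrial genes 1 rose and 1 fell for sgUTX_2, and 3 rose and 1 fell for sgUTX_4. Between the guides, sgUTX_4 over sgUTX_2 under SGC0946, SARS, LARS, YARS, EPRS and MARS were called lower, by log2 fold changes between -0.36 and -0.23, where 3.01% of all genes were called. In an edgeR fit without sgUTX_4 SGC0946 replicate 1, chosen after the data were seen, 0 of the 36 genes were called between the guides (4 at an unadjusted p under 0.05), and the values of these 5 genes lay between -0.23 and -0.14.

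**Figure D5:**
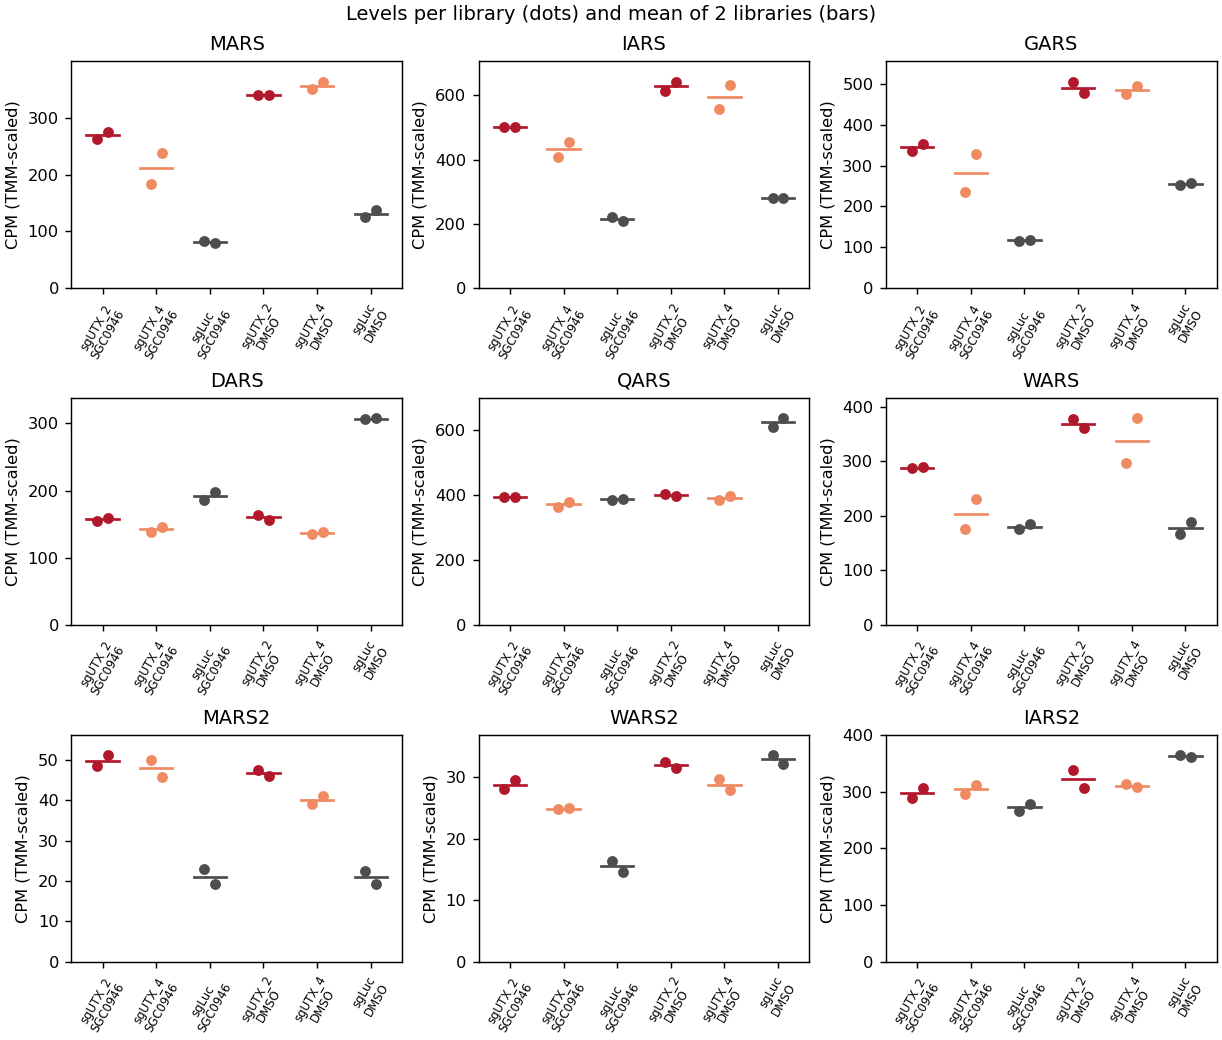
CPM of 9 genes in every library (points) with the mean of the 2 libraries (bar), for sgUTX_2 (dark red), sgUTX_4 (light red) and sgLuc (gray) under SGC0946 (left) and DMSO (right); all axes start at 0. MARS, IARS, GARS and MARS2 are higher in all sgUTX libraries of both treatments, QARS is high in the 2 sgLuc DMSO libraries alone, and WARS2 is low in the 2 sgLuc SGC0946 libraries alone.

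Genes that work with the synthetases were read from 7 lists of 48 genes, to be set against the shares of all genes given above for each comparison (61% called with sgUTX in DMSO, 28.7% higher and 32.3% lower). Of the scaffold proteins of the multisynthetase complex, EEF1E1 rose with sgUTX in DMSO (log2 fold change 0.75 ± 0.12, adjusted p = 1.12e-05) and AIMP1 fell (log2 fold change -0.56 ± 0.06, adjusted p = 8.18e-08), while AIMP2 was not called (log2 fold change 0.20 ± 0.10, adjusted p = 0.0797). All 3 fell with SGC0946 in sgLuc cells, by log2 fold changes of -0.77 for EEF1E1, -0.73 for AIMP1 and -0.35 for AIMP2. XPOT, which exports tRNA from the nucleus, and TRNT1, which adds the CCA end of tRNA, rose with sgUTX in DMSO by 0.87 and 1.39. They were 2 of the 3 genes of their list of 8 that rose, and DTD1, which removes D-amino acids from tRNA, fell by 0.29 on the log2 scale.

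The cytosolic elongation factors, which bring charged tRNA to the ribosome and move it on, went the other way from most cytosolic synthetases with sgUTX in DMSO, where 3 of the 4 tested fell: EEF1A1 by 0.94, EEF2 by 0.85 and EEF1B2 by 0.73 on the log2 scale; EEF1G was listed at 0 in every library and was not tested. With SGC0946 in sgLuc cells all 4 fell, as did 19 of the 20 cytosolic synthetases, with medians of -0.60 and -0.65. All 4 were called positive for the response difference, with a median of 0.54 (34.8% of all genes called). EEF1A1, EEF2 and EEF1B2 thus had the directions of DARS and QARS in those comparisons. In the sgLuc DMSO libraries the ribosomal protein share was highest too, and its part in these values was not tested. The mitochondrial translation factors gave 4 rises and 2 falls among 9 genes with sgUTX in DMSO, a share called near the 61% of all genes. The rises were led by GFM1 (1.10), TSFM (0.76) and TUFM (0.45), the mitochondrial elongation factors. Of the genes that amidate or formylate mitochondrial tRNA, QRSL1 rose (0.55), GATB fell (-0.61), and GATC and MTFMT were not called.

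Of 12 genes of the amino acid response 7 rose and 1 fell with sgUTX in DMSO, with a median log2 fold change of 0.61; the share called was near the 61% of all genes, of which 28.7% were higher and 32.3% lower. CHAC1, which degrades glutathione, had 50.5 to 63.4 CPM in sgUTX DMSO libraries and 8.86 and 9.58 CPM in sgLuc DMSO libraries (log2 fold change 2.63 ± 0.13, adjusted p = 8.56e-14). SESN2, a leucine sensor, rose by 1.75, and TRIB3, a pseudokinase that restrains ATF4, by 1.43. The mRNA of ATF4 itself was not called (log2 fold change 0.05 ± 0.07, adjusted p = 0.543), and DDIT3, which encodes the factor CHOP, fell by 0.51 on the log2 scale. With SGC0946, 8 of the 12 fell and 1 rose in sgUTX cells (16.4% of all genes lower and 17.4% higher), and 6 fell and 2 rose in sgLuc cells (24.2% lower and 24.7% higher), where CHAC1 fell by 1.89 and ATF4 by 0.61 on the log2 scale. Under SGC0946 9 of the 12 rose and 3 fell with sgUTX (27.7% of all genes higher and 29.3% lower), ATF4 among the higher (0.46) and ATF3, DDIT3 and CEBPB among those that fell.

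WARS is known to be induced by interferon gamma, so interferon response genes were read beside it. With sgUTX in DMSO, where WARS rose, OAS2 (log2 fold change -3.65 ± 0.22, adjusted p = 2.32e-12), GBP2 (log2 fold change -3.64 ± 0.15, adjusted p = 5.66e-15) and IFIT1 (log2 fold change -1.55 ± 0.33, adjusted p = 0.000273) fell, and IRF1 (0.25 ± 0.11) was not called. With SGC0946 in sgLuc cells, where WARS was not called, IFIT1, OAS2 and GBP2 rose by 1.55, 0.90 and 0.46. In sgUTX cells, where SGC0946 lowered WARS, 2 of the 5 genes tested fell and 0 rose (16.4% of all genes lower). Under SGC0946, where WARS was not called between genotypes, 4 of the 5 fell with sgUTX and 0 rose (29.3% lower). For the response difference, where WARS was not called at -0.54, 2 of the 5 were negative and 0 positive (16.5% negative). A link of WARS to these genes was not tested.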

How the data were processed

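The deposited table holds raw, unnormalized read counts per Ensembl gene for 12 libraries. The submitters' processing notes name STAR 2.5.1b and hg19; the deposited counts, however, carry precisely the 58735 gene identifiers of GENCODE 29, which annotates GRCh38. The build is therefore uncertain, and gene extents and exon overlaps were taken from GENCODE 29. How reads were assigned to genes, and whether strand was used, is not given in the sources used here. Per the labels' protocols, libraries were read as pairs of 150 bases.

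Tests were two-sided quasi-likelihood F-tests of edgeR 4.0.16 in R 4.3.3 (robust fit, TMM factors, low counts removed with filterByExpr). Benjamini-Hochberg adjustment ran over all 15060 genes kept, with calls at an adjusted p under 0.05, and every adjusted p in the text is from edgeR unless DESeq2 (1.42.0) is named. The 12 libraries were fitted in 4 groups (sgUTX or sgLuc, SGC0946 or DMSO; 8 residual degrees of freedom, biological coefficient of variation 0.0775), and in 6 groups for single guides (6 degrees of freedom, 0.057). Each SE is the absolute log2 fold change divided by the square root of F. CPM values use TMM-scaled library sizes. The code was tested on simulated counts. Alternatives were library size alone, RLE factors, DESeq2, no filter, 6 groups with guides averaged, a replicate term, and leaving out each library.

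The members and all gene lists were chosen with earlier results of these data known. Values in every library are given, for each comparison, class and direction, for up to 3 called genes with the largest change and for genes that went against their class. No 2 libraries were identical; over genes with at least 20 counts, the mean chi-square between both libraries of a group was 2.85 to 6.29, above sampling noise. Libraries were not paired by number. Of the interferon response list, 1 gene is not reported here.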

Additional observations from a re-analysis of the deposited data

Results flagged for a closer look

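The response to SGC0946 differed between sgUTX and sgLuc cells, by the edgeR interaction test, for 18 of the 36 genes, where 34.8% of all genes were called. Given as the log2 response in sgUTX cells minus that in sgLuc cells, the differences of cytosolic genes were 0.69 for DARS, 0.65 for KARS, 0.64 for QARS, 0.57 for EPRS, 0.50 for YARS, 0.48 for GARS, 0.41 for LARS, 0.40 for HARS and 0.39 for FARSA. Those of mitochondrial genes were 0.91 for WARS2, 0.66 for VARS2, 0.59 for PARS2, 0.49 for EARS2, 0.49 for NARS2, 0.45 for TARS2, 0.42 for HARS2, 0.34 for IARS2 and -0.30 for CARS2. Beside the calls named above as lost with 1 library left out, that of EARS2 was lost without sgLuc SGC0946 replicate 2 (0.35, adjusted p = 0.0678), that of TARS2 without sgLuc DMSO replicate 1 or either sgLuc SGC0946 library (adjusted p 0.0519 to 0.115), and that of HARS2 without sgLuc DMSO replicate 2, either sgLuc SGC0946 library, sgUTX_2 DMSO replicate 1 or sgUTX_4 SGC0946 replicate 2 (adjusted p 0.0575 to 0.211).

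Of 72 groups of 4 libraries tested for a single stray library, 3 were marked, and chance marks about 1 in 20 such groups. In each, the gap to the nearest library made up most of the whole range of the group, as the share given. NARS in sgUTX DMSO libraries had 294.0 CPM in sgUTX_2 replicate 2, against 322 to 325 CPM in the other 3 (share 0.897). RARS in sgUTX SGC0946 libraries had 72.2 CPM in sgUTX_4 replicate 1, against 64.8 to 65.5 CPM (share 0.897). HARS2 in sgUTX DMSO libraries had 13.3 CPM in sgUTX_2 replicate 1, against 16.1 to 16.4 CPM (share 0.896).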

How the results depend on the processing

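Of 180 log2 fold changes of the 36 genes (5 comparisons), 120 were called. None of the 120 turned direction with RLE factors, DESeq2, no filter, guides averaged, the replicate term or any left-out library, while 23 of the 60 not called did in at least 1 of these. With library size alone 2 called values turned, KARS (0.076) and IARS2 (0.074) for sgUTX over sgLuc in DMSO, and 13 not called turned, of which HARS (0.18), RARS (0.20) and TARS2 (0.23) in that comparison and QARS (0.17) under SGC0946 were then called. With library size alone 17 cytosolic genes were higher and 2 lower in sgUTX DMSO cells, and 11 mitochondrial genes higher and 1 lower; over all genes 6557 were higher and 3272 lower, against 4325 and 4863 with TMM. Leaving out libraries ended 71 calls and added 14 over 12 fits. Mitochondrial calls for SGC0946 over DMSO in sgUTX cells, 3 in all, were 5 with guides averaged and 2 to 5 with a library left out. Those for the response difference, 9 in all, were 4 to 9 with a library left out. Synthetase genes called between the guides under SGC0946, 5 in all, were 0 without sgUTX_4 SGC0946 replicate 1.

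Replicate numbers did not pair the libraries: over 15 pairs of groups the correlation of replicate differences lay between -0.111 and 0.073. With the replicate block 17, 18, 16, 17 and 9 cytosolic and 8, 7, 2, 14 and 9 mitochondrial genes were called, in the order sgUTX in DMSO, SGC0946 in sgLuc cells, SGC0946 in sgUTX cells, sgUTX under SGC0946, and the response difference. Depth limits SARS2 most, with as few as 13 reads in a library.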

Other observations

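Set side by side by amino acid, enzymes of the cytosol and of mitochondria moved alike in some comparisons and apart in others, also for 1 amino acid. For methionine, sgUTX over sgLuc in DMSO was 1.41 for MARS and 1.05 for MARS2 on the log2 scale, both called. With SGC0946 over DMSO in sgLuc cells MARS was called at -0.68, and MARS2, at 0.01, was not. For tryptophan it was 0.99 for WARS, called, and -0.11 for WARS2, not called, and SGC0946 over DMSO in sgLuc cells was 0.02 for WARS, not called, and -1.09 for WARS2, called. For leucine, SGC0946 over DMSO in sgLuc cells was -0.99 for LARS, called, and -0.09 for LARS2, not called. With sgUTX over sgLuc in DMSO both were called higher, at 0.58 for LARS and 0.47 for LARS2. For histidine, sgUTX over sgLuc under SGC0946 was 0.30 for HARS, called, and -0.11 for HARS2, not called.

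The synthetases fall into a pair of unrelated structural classes. Of 9 cytosolic class I genes, 7 rose and 1 fell with sgUTX in DMSO, with a median log2 fold change of 0.81. Of 10 class II genes 6 rose and 2 fell, and their median was 0.40. Over all genes 28.7% were called higher and 32.3% lower. EPRS joins an enzyme of each class and is counted in neither. The difference between the classes was not tested.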
